A study of Macaca mulatta with 18 samples.

Results

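The potassium channel genes of the fetal macaque brain were taken as all genes of the RNA table whose symbol starts with KCN, KCNJ8 excepted. The table of 22345 genes held 66 of them, in 20 subfamilies from KCNA to KCNV. Of these, 51 in 17 subfamilies had a mean of 0 or more on the log2 scale over the 6 libraries and were tested, and 15 lay below. Wild-type rhesus macaque fetal brain at embryonic day 84 was sampled as 2 kinds of tissue, labelled CP and GZ and not spelled out further. RNA-seq covered 3 libraries of each, numbered 1 to 3 after an identifier in the titles (RM01 to RM03) that CP and GZ libraries share, as do the other assays. What the identifier stands for, an animal or otherwise, is not stated, so the p-values below reflect only library-to-library spread, part of which may be technical. Hi-C, DNase-seq and CTCF data of the same series were not used here.

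Potassium channels are membrane pores that let potassium ions out of a cell, which holds the resting potential negative and ends the action potential. Voltage-gated families (KCNA to KCND, KCNH, KCNQ) open on depolarization, KCNG, KCNS and KCNV subunits are silent alone and modify KCNB channels, and KCNM, KCNN and KCNT channels are opened by intracellular calcium or sodium. Inward rectifiers (KCNJ) and tandem-pore leak channels (KCNK) act near rest, and KCNAB, KCNE, KCNIP and KCNMB are accessory subunits without a pore. In developing cortex these channels come on as neurons become excitable, while some are also used by progenitors and glia.

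Library medians of the whole table ran from 1.82 to 1.87 on the log2 scale, and read depth is unknown because the values are normalized. Over 9 Y-linked genes the median log2 level was 1.55 in CP 1 and -0.13 in GZ 1, against 3.73 and 3.75 in CP 2 and GZ 2 and -1.73 in both libraries numbered 3. The 2 libraries numbered 1 thus differ in these genes, and counts without them are given below. In the list of neuronal maturation genes 11 of 12 were higher in CP, with levels as FPKM (2 to the power of the log2 value) summing to 1636 to 1696 in the CP libraries and 844 to 1010.5 in the GZ libraries. In the list of proliferating progenitor genes 8 of 9 were higher in GZ, summing to 226 to 313 in the CP libraries and 379 to 488 in the GZ libraries. The list of endothelium and pericyte genes had all 8 of its measured genes called in favour of CP, summing to 111 to 155 in the CP libraries and 26.7 to 58.7 in the GZ libraries. Of 8 interneuron genes 6 were higher in GZ and 1 in CP, summing to 236 to 258 in the CP libraries and 519 to 720.0 in the GZ libraries. No measured gene of these 4 lists had a mean under 0. Of 7 projection neuron genes 4 were called in favour of CP and 2 in favour of GZ, and of 7 meningeal and erythroid genes 2 in favour of CP. Of all genes tested, 20.9% were called in favour of CP and 24.5% in favour of GZ. The meningeal and erythroid count is near that share and shows no difference of that list. The part of these cell types in the results was not tested, and in bulk tissue fewer cells of a type and less RNA per cell cannot be told apart.

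Potassium channel genes were mostly higher in CP. Of the 51 tested, 26 were higher in CP, 6 were higher in GZ and 19 did not pass limma at a Benjamini-Hochberg adjusted p under 0.05. Among all 13460 genes tested, calls in favour of CP made up 20.9% and calls in favour of GZ 24.5%, or 45.4% in either direction. The members had a median difference (GZ minus CP, log2) of -0.40, and all genes had 0.05. CP and GZ libraries did not overlap for 34 of the 51 members (66.7%) and for 56.4% of all genes. A difference of at least 1 on the log2 scale, a 2-fold change, was called for 14 members in favour of CP and 3 in favour of GZ, where 7.04% and 5.41% of all genes passed. Without both libraries numbered 1, calls of any size fell to 19 members in favour of CP and 3 in favour of GZ, of 51. Calls over all genes fell as well, from 2816 to 1721 in favour of CP and from 3297 to 1644 in favour of GZ, of 13477. Leaving out GZ 1 alone left 18 members higher in CP and 2 higher in GZ, where 2254 and 2237 of 13452 genes were called. KCNA5, KCNK4, KCNQ5 and KCNV1 had a tissue mean under 0 and entered the test through the other tissue. Over all 66 members without a filter, 26 were higher in CP and 7 in GZ, where 12.4% and 15.5% of all 22345 genes were called.

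**Figure D1:**
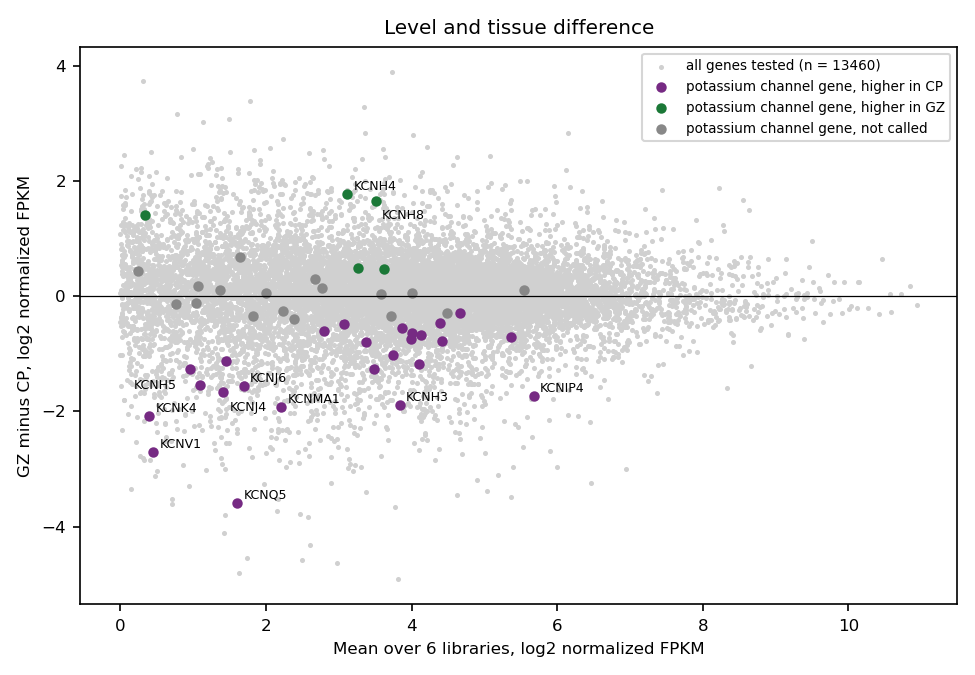
Mean level over the 6 libraries (x axis, log2 normalized FPKM) against the GZ minus CP difference (y axis, log2) for all 13460 genes tested (grey) and 47 of the 51 tested potassium channel genes (large points, coloured by their call). Most large points lie below 0, with KCNQ5 lowest of them at -3.59 and KCNIP4 at -1.73 at a mean level of 5.68.

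The summed level of the group is given as a description, with no test. The FPKM of the 66 members summed to 828, 940.3 and 849 in CP libraries 1 to 3 and to 702, 661 and 699.7 in GZ libraries 1 to 3. Every CP sum thus lay above every GZ sum. Pore-forming subunits held 61.4% to 63.7% in CP and 67.8% to 72.6% in GZ, and accessory genes 34.8% to 37.4% and 26.3% to 31.1%. The accessory gene KCNIP4 alone held 9.20% to 14.1% in CP and 3.16% to 4.68% in GZ. Much of the class shift thus came with this single gene, and shares without it were not computed. Silent subunits held 1.22% to 1.55% and 1.12% to 1.13%.

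**Figure D2:**
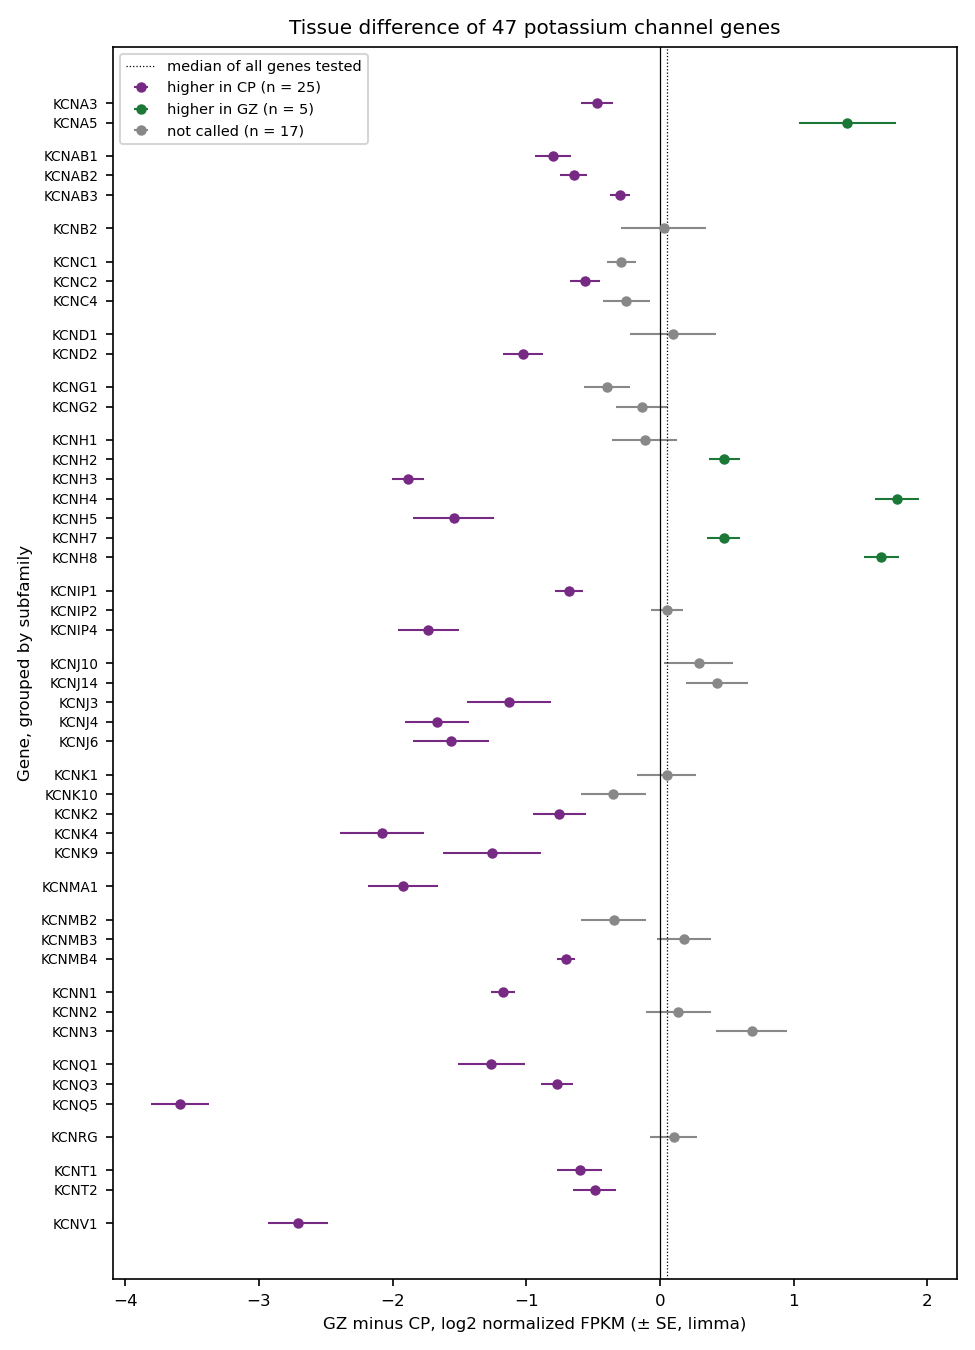
GZ minus CP difference (x axis, log2 normalized FPKM, ± SE from limma, 3 libraries per tissue) of 47 of the 51 tested members (y axis, grouped by subfamily). Of those drawn, purple genes were called higher in CP (25), green genes higher in GZ (5), and grey genes were not called (17); KCNH holds calls in both directions.

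The KCNQ subfamily, which carries the M-current that damps repetitive firing, held the largest difference of all tested members. KCNQ5, an M-current subunit, read 3.31, 3.74 and 3.15 in CP libraries 1 to 3 and -0.32, -0.31 and 0.06 in GZ libraries 1 to 3 on the log2 scale. The groups were far apart, and KCNQ5 was 12-fold higher in CP (GZ minus CP -3.59 ± 0.21 SE, adjusted p = 4.46e-05), a fold that rests on GZ values near 0. KCNQ3, another M-current subunit, read 4.61, 4.81 and 4.98 in CP libraries 1 to 3 and 4.07, 3.91 and 4.11 in GZ libraries 1 to 3. All CP values were above all GZ values, and KCNQ3 was 1.71-fold higher in CP (GZ minus CP -0.77 ± 0.12 SE, adjusted p = 0.00172). KCNQ1, best known from heart and inner ear, read 3.70, 4.63 and 4.03 in CP libraries 1 to 3 and 3.19, 2.81 and 2.58 in GZ libraries 1 to 3. The tissues did not overlap, and KCNQ1 was 2.4-fold higher in CP (GZ minus CP -1.26 ± 0.25 SE, adjusted p = 0.00507).

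The balance of the M-current subunits KCNQ3 and KCNQ5 also differed between tissues without overlap. On the log2 scale KCNQ3 exceeded KCNQ5 by 1.08 to 1.83 in the CP libraries and by 4.05 to 4.39 in the GZ libraries. This ratio follows from the levels above and was not tested on its own.

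KCNH, the ether-a-go-go family, was split. It held 4 of the 6 members called higher in GZ and 2 called higher in CP out of 7 tested. Of all genes tested, 24.5% and 20.9% were called in these directions. In its ELK branch, whose channels open at voltages near rest, KCNH4 read 2.50, 2.03 and 2.16 in CP libraries 1 to 3 and 4.06, 4.14 and 3.81 in GZ libraries 1 to 3. The GZ values were the higher ones without overlap, 3.42-fold (GZ minus CP 1.77 ± 0.16 SE, adjusted p = 1.91e-04). KCNH8, from the same branch, read 2.85, 2.52 and 2.67 in CP libraries 1 to 3 and 4.41, 4.45 and 4.17 in GZ libraries 1 to 3. It too was higher in every GZ library, 3.16-fold (GZ minus CP 1.66 ± 0.13 SE, adjusted p = 1.13e-04). KCNH3, the third ELK gene, went the other way, with 4.64, 4.85 and 4.87 in CP libraries 1 to 3 and 3.05, 2.76 and 2.89 in GZ libraries 1 to 3. KCNH3 was 3.7-fold higher in CP (GZ minus CP -1.89 ± 0.12 SE, adjusted p = 5.15e-05). It held 65.8% to 74.6% of the summed ELK FPKM in CP and 14.6% to 18.8% in GZ. In GZ the largest share was that of KCNH8, at 45.6% to 47.2%, with KCNH4 at 35.6% to 38.2%.

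**Figure D3:**
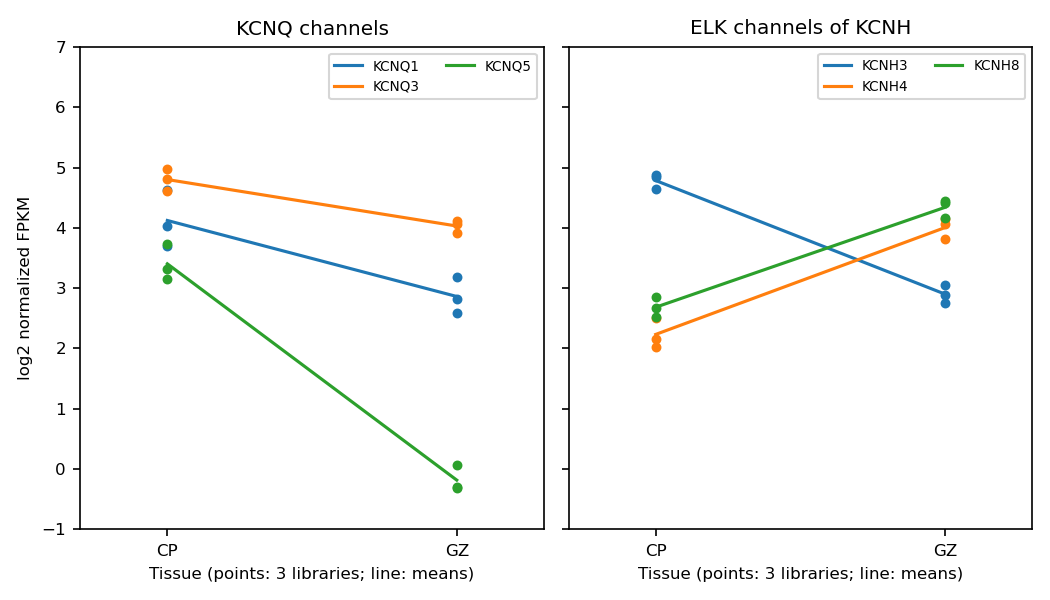
Log2 normalized FPKM (y axis) of 3 KCNQ genes (left) and the 3 ELK genes of KCNH (right) in CP and GZ (x axis), with 1 point per library and lines joining tissue means. KCNQ5 goes from 3.40 in CP to -0.19 in GZ, and the KCNH3 line crosses those of KCNH4 and KCNH8.

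The ERG branch of KCNH, whose channels carry slowly deactivating currents, was higher in GZ by smaller steps. KCNH2 was 3.02 ± 0.09 in CP against 3.51 ± 0.10 in GZ (SD, n = 3), a 1.4-fold difference (GZ minus CP 0.48 ± 0.12 SE, adjusted p = 0.0113). KCNH7 was 3.38 ± 0.15 and 3.86 ± 0.13, 1.39-fold higher in GZ (GZ minus CP 0.48 ± 0.12 SE, adjusted p = 0.0159). The KCNH2 call was lost without library GZ 1 (adjusted p = 0.0528) and the KCNH7 call without library CP 1 or GZ 1 (adjusted p = 0.0512 to 0.0516), and both without the 2 libraries numbered 1 (adjusted p = 0.107 and 0.134). In the EAG branch KCNH5 read 1.33, 2.30 and 1.98 in CP libraries 1 to 3 and 0.63, 0.41 and -0.07 in GZ libraries 1 to 3. It was higher in every CP library, 2.92-fold (GZ minus CP -1.54 ± 0.30 SE, adjusted p = 0.00482), with CP 1 the lowest of the CP values. KCNH1, the other EAG gene, did not pass (GZ minus CP -0.11 ± 0.25 SE, adjusted p = 0.736). KCNH6 had a mean of -1.63 and was not tested.

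Among the delayed rectifiers, which repolarize the membrane after a spike, the 2 KCNA genes measured went opposite ways. KCNA5 read 0.39, -1.01 and -0.48 in CP libraries 1 to 3 and 1.11, 0.77 and 1.23 in GZ libraries 1 to 3. It was higher in every GZ library, 2.65-fold (GZ minus CP 1.40 ± 0.37 SE, adjusted p = 0.0158), at low levels, and was not called without library GZ 1 (adjusted p = 0.05031). KCNA3 was 4.62 ± 0.07 in CP against 4.15 ± 0.21 in GZ (SD, n = 3), 1.39-fold higher in CP (GZ minus CP -0.47 ± 0.12 SE, adjusted p = 0.0144). Its call was lost without library CP 3 or GZ 1 (adjusted p = 0.0516 to 0.0552) and without both libraries numbered 1 (adjusted p = 0.128). With a pseudocount of 1 the KCNA5 difference was 0.76. KCNB2 overlapped between tissues (GZ minus CP 0.03 ± 0.32 SE, adjusted p = 0.948).

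The silent subunit KCNV1, which joins KCNB channels and changes their gating, was higher in CP. KCNV1 read 1.76, 1.92 and 1.73 in CP libraries 1 to 3 and -0.80, -0.73 and -1.19 in GZ libraries 1 to 3. Every CP library was well above every GZ library, 6.54-fold on GZ values under 0 (GZ minus CP -2.71 ± 0.23 SE, adjusted p = 1.27e-04). With a pseudocount of 1 the KCNV1 difference was -1.55. Of the other silent subunits, KCNG1, the highest of its subfamily, read 2.71, 2.28 and 2.77 in CP libraries 1 to 3 and 2.31, 2.15 and 2.12 in GZ libraries 1 to 3 and did not pass (GZ minus CP -0.40 ± 0.17 SE, adjusted p = 0.0948). KCNG1 was called without CP 2, its lowest CP library and the nearest to GZ (adjusted p = 0.029). KCNG2 was low and did not pass (GZ minus CP -0.13 ± 0.20 SE, adjusted p = 0.619), and KCNG4, KCNS1 and KCNS3 had means under 0.

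KCNC genes code for the fast channels of rapidly firing neurons. KCNC1, the highest of them, read 4.73, 4.60 and 4.56 in CP libraries 1 to 3 and 4.27, 4.22 and 4.54 in GZ libraries 1 to 3. Its tissues did not overlap, but its difference did not pass (GZ minus CP -0.29 ± 0.11 SE, adjusted p = 0.0654). The difference passed only without GZ 3, the GZ library nearest to CP (adjusted p = 0.0155). KCNC2 was 1.47-fold higher in CP (GZ minus CP -0.56 ± 0.11 SE, adjusted p = 0.00508). KCNC4 overlapped between tissues (GZ minus CP -0.25 ± 0.18 SE, adjusted p = 0.281).

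The A-type channel genes and their calcium-binding partners were considered together, since KCND channels work with KCNIP proteins and with the DPP6 family. KCND2, the main A-type channel of neuronal dendrites, read 4.03, 4.45 and 4.30 in CP libraries 1 to 3 and 3.27, 3.03 and 3.41 in GZ libraries 1 to 3. CP was higher without overlap, 2.03-fold (GZ minus CP -1.02 ± 0.15 SE, adjusted p = 0.00144). KCND1 was low and overlapped (GZ minus CP 0.10 ± 0.32 SE, adjusted p = 0.827). KCNIP4, a calcium-binding accessory of these channels, was the highest of its subfamily and read 6.29, 7.05 and 6.29 in CP libraries 1 to 3 and 5.04, 4.92 and 4.47 in GZ libraries 1 to 3. CP 2 was the highest library, all CP values exceeded all GZ values, and the difference was 3.32-fold (GZ minus CP -1.73 ± 0.23 SE, adjusted p = 9.18e-04). KCNIP1 was 1.6-fold higher in CP (GZ minus CP -0.68 ± 0.10 SE, adjusted p = 0.00172), while KCNIP2 overlapped between tissues (GZ minus CP 0.05 ± 0.12 SE, adjusted p = 0.744). KCNIP4 held 66.7% to 77.7% of the summed KCNIP FPKM in CP and 43.4% to 50.6% in GZ, and KCNIP2 9.55% to 13.7% and 27.4% to 28.9%.

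The 3 KCNAB genes, whose cytoplasmic beta subunits bind KCNA channels, were all higher in CP. KCNAB3, the most abundant of them, read 4.88, 4.78 and 4.79 in CP libraries 1 to 3 and 4.52, 4.53 and 4.51 in GZ libraries 1 to 3. Its difference was small but the tissues did not overlap, 1.23-fold (GZ minus CP -0.30 ± 0.08 SE, adjusted p = 0.0156), and its call was lost without library CP 1 or GZ 1 (adjusted p = 0.0578 to 0.0582) and without both libraries numbered 1 (adjusted p = 0.166). KCNAB1 was 1.74-fold (GZ minus CP -0.80 ± 0.13 SE, adjusted p = 0.00241) and KCNAB2 1.56-fold higher in CP (GZ minus CP -0.65 ± 0.10 SE, adjusted p = 0.00183). KCNRG, a soluble protein that hinders the assembly of voltage-gated channels, was abundant, at 5.50 ± 0.18 in CP against 5.60 ± 0.35 in GZ, and did not pass (adjusted p = 0.669). KCNE4 had a mean of -0.92 and was not tested.

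**Figure D4:**
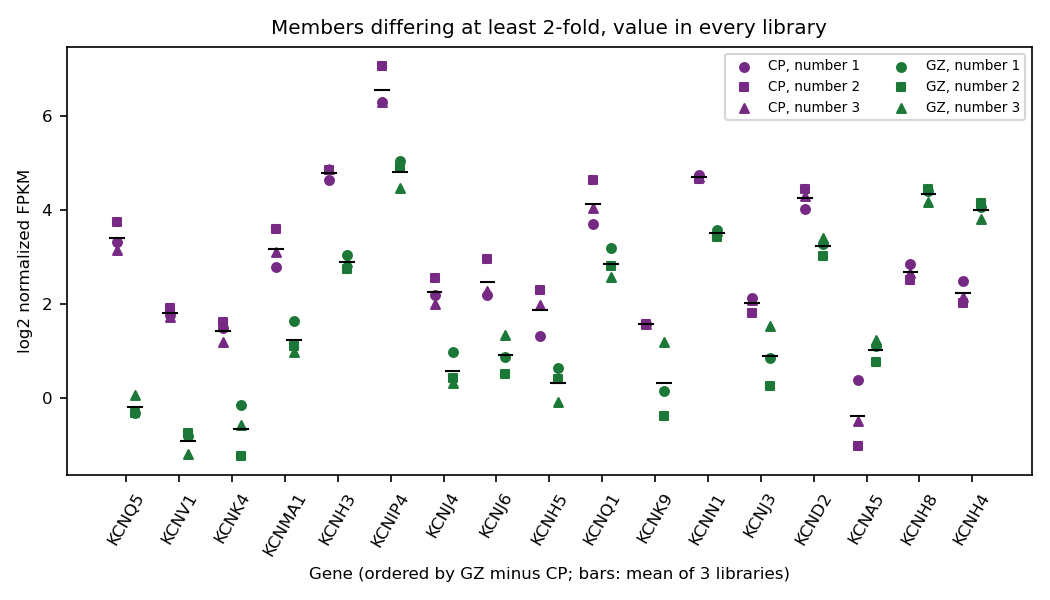
Log2 normalized FPKM (y axis) in each of the 6 libraries for the 17 members called with a difference of at least 1 (x axis, ordered by GZ minus CP). Purple symbols are CP, green are GZ, their shape gives the library number and bars are tissue means. KCNA5, KCNH8 and KCNH4 at the right are the 3 higher in GZ. No gene shown has overlapping tissues, which choosing genes by call and size favours.

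Among channels opened by calcium, the BK pore gene and the most abundant SK gene were higher in CP. KCNMA1, the BK pore, which couples calcium entry to fast repolarization, read 2.79, 3.60 and 3.12 in CP libraries 1 to 3 and 1.65, 1.12 and 0.98 in GZ libraries 1 to 3. All CP libraries were above all GZ libraries, 3.79-fold (GZ minus CP -1.92 ± 0.26 SE, adjusted p = 0.00101). KCNMB4, the brain-enriched BK beta subunit, read 5.71, 5.74 and 5.72 in CP libraries 1 to 3 and 5.02, 5.04 and 4.99 in GZ libraries 1 to 3. The spread within tissues was small and the difference 1.63-fold in favour of CP (GZ minus CP -0.70 ± 0.07 SE, adjusted p = 2.41e-04). KCNMB4 thus exceeded KCNMA1 by 2.13 to 2.92 on the log2 scale in CP and by 3.37 to 4.01 in GZ. KCNMB2 (GZ minus CP -0.35 ± 0.24 SE, adjusted p = 0.276) and KCNMB3 (GZ minus CP 0.18 ± 0.20 SE, adjusted p = 0.508) did not pass. KCNMB2 was called without GZ 3, its highest GZ library (adjusted p = 0.00639).

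SK channels, which produce an afterhyperpolarization, had 1 called gene among 3 tested, no more than the 45.4% of all genes called in either direction. KCNN1, the highest, read 4.74, 4.65 and 4.69 in CP libraries 1 to 3 and 3.57, 3.43 and 3.56 in GZ libraries 1 to 3. Its tissues were far apart for their spread, 2.26-fold in favour of CP (GZ minus CP -1.17 ± 0.09 SE, adjusted p = 1.02e-04). KCNN2 overlapped (GZ minus CP 0.14 ± 0.24 SE, adjusted p = 0.68). KCNN3 was 1.30 ± 0.15 in CP against 1.98 ± 0.51 in GZ and did not pass (GZ minus CP 0.69 ± 0.27 SE, adjusted p = 0.0678). KCNN3 passed without GZ 2, its lowest GZ library and the nearest to CP (adjusted p = 0.0119). KCNN1 held 70.9% to 75.5% of the summed KCNN FPKM in CP and 45.6% to 52.7% in GZ. The sodium-activated channel genes were both higher in CP, KCNT1 by 1.52-fold (GZ minus CP -0.60 ± 0.17 SE, adjusted p = 0.0216) and KCNT2 by 1.4-fold (GZ minus CP -0.49 ± 0.16 SE, adjusted p = 0.0361). Both calls were fragile: KCNT1 was lost without library CP 2, CP 3, GZ 1 or GZ 2 (adjusted p = 0.0548 to 0.0762) and without both libraries numbered 1 (adjusted p = 0.057), and KCNT2 without library CP 2, CP 3, GZ 1 or GZ 2 (adjusted p = 0.0752 to 0.117). KCNN4 and KCNU1 had means under 0.

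Of 5 inward rectifier genes tested, 3 were higher in CP, each at least 2-fold. Calls in favour of CP made up 20.9% of all genes tested. KCNJ6 and KCNJ3 code for subunits of the GIRK channels that G proteins open. KCNJ6 read 2.19, 2.97 and 2.29 in CP libraries 1 to 3 and 0.89, 0.52 and 1.34 in GZ libraries 1 to 3. CP was higher in every library, 2.95-fold (GZ minus CP -1.56 ± 0.28 SE, adjusted p = 0.00347). KCNJ3 read 2.14, 1.82 and 2.10 in CP libraries 1 to 3 and 0.86, 0.27 and 1.54 in GZ libraries 1 to 3. The GZ libraries spread widely below CP, with a 2.18-fold difference (GZ minus CP -1.13 ± 0.31 SE, adjusted p = 0.0205) that was not called without library CP 1, CP 3 or GZ 1 (adjusted p = 0.057 to 0.063) or without both numbered 1 (adjusted p = 0.126). KCNJ4, a strong inward rectifier of forebrain neurons, read 2.19, 2.56 and 2.00 in CP libraries 1 to 3 and 0.98, 0.43 and 0.33 in GZ libraries 1 to 3. The tissues did not overlap, 3.18-fold (GZ minus CP -1.67 ± 0.24 SE, adjusted p = 0.00139). KCNJ10, the glial channel that takes up potassium, was the highest of the subfamily and read 3.03, 2.42 and 2.14 in CP libraries 1 to 3 and 2.46, 3.04 and 2.97 in GZ libraries 1 to 3. Its tissues overlapped, with CP 1 the highest CP library (GZ minus CP 0.29 ± 0.26 SE, adjusted p = 0.391). Its gene model overlaps other models in the reference table, so its reads may be mixed with theirs. Of 6 astrocyte and oligodendrocyte genes 2 were called in favour of GZ and 1 in favour of CP, near the shares of all genes tested (24.5% and 20.9%). KCNJ14 read -0.02, 0.28 and -0.18 in CP libraries 1 to 3 and 0.50, 0.56 and 0.30 in GZ libraries 1 to 3 and did not pass, though its tissues did not overlap (GZ minus CP 0.43 ± 0.23 SE, adjusted p = 0.17). Its mean of 0.24, like that of KCNA5 at 0.33, lies just inside the limit of 0. KCNJ1, KCNJ5 and KCNJ16 lay below it.

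Tandem-pore leak channels set the resting conductance, and 3 of the 5 tested were higher in CP, as were 20.9% of all genes tested. KCNK2, a mechanosensitive channel of the TREK group and the most abundant KCNK gene, read 4.44, 4.24 and 4.40 in CP libraries 1 to 3 and 3.54, 3.22 and 4.07 in GZ libraries 1 to 3. It was 1.68-fold higher in CP (GZ minus CP -0.75 ± 0.20 SE, adjusted p = 0.0174), with GZ 3 closest to CP, and was not called without library CP 1, CP 3 or GZ 1 (adjusted p = 0.055 to 0.0559) or without both numbered 1 (adjusted p = 0.129). KCNK9, an acid-sensitive TASK channel, read 1.58, 1.58 and 1.57 in CP libraries 1 to 3 and 0.15, -0.37 and 1.19 in GZ libraries 1 to 3. The CP libraries were nearly equal and the GZ libraries wide apart, 2.39-fold (GZ minus CP -1.26 ± 0.37 SE, adjusted p = 0.0255). Its call was lost without library CP 1, CP 2, CP 3, GZ 1 or GZ 2 (adjusted p = 0.0618 to 0.0751) and without both numbered 1 (adjusted p = 0.139). With a pseudocount of 1 its difference was -0.79. KCNK1 (GZ minus CP 0.05 ± 0.22 SE, adjusted p = 0.869) and KCNK10 (GZ minus CP -0.35 ± 0.24 SE, adjusted p = 0.279) overlapped between tissues.

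KCNK4, the TRAAK channel related to KCNK2, read 1.49, 1.63 and 1.19 in CP libraries 1 to 3 and -0.14, -1.22 and -0.57 in GZ libraries 1 to 3. It was 4.23-fold higher in CP (GZ minus CP -2.08 ± 0.31 SE, adjusted p = 0.00159), and with a pseudocount of 1 the difference was -1.16. This value is uncertain, because the KCNK4 gene model overlaps that of CATSPERZ in the reference table. CATSPERZ was 2.94 in CP and -0.06 in GZ (GZ minus CP -3.00 ± 0.25 SE, adjusted p = 1.27e-04), and the reads of the genes cannot be told apart without strand or junctions. Named genes among those tested also overlap KCNH3, KCNIP4 and KCND2 among the members with 2-fold calls, but MCRS1 (adjusted p = 0.72), PACRGL (adjusted p = 0.324) and TSPAN12 (adjusted p = 0.332) were not called. Other models overlap KCNN1 (SLC5A5), KCNMA1, KCND2, KCNH3, KCNH4, KCNK9, KCNQ1 and KCNQ5, and their levels were not compared. Whether reads of these members were mixed with theirs was not tested.

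The members below the limit were KCNE4, KCNG4, KCNH6, KCNJ1, KCNJ5, KCNJ16, KCNK5, KCNK7, KCNK13, KCNK16, KCNK17, KCNN4, KCNS1, KCNS3 and KCNU1. Just outside lay KCNS3 at a mean of -0.60, with -0.95, -0.48 and -0.53 in CP libraries 1 to 3 and -0.61, -0.60 and -0.45 in GZ libraries 1 to 3, and KCNK13 at -0.70, with -1.37, -1.0 and -1.23 in CP libraries 1 to 3 and -0.26, -0.10 and -0.22 in GZ libraries 1 to 3. The KCNS3 libraries of the tissues overlapped. KCNK13, a THIK channel found in microglia, was higher in every GZ library, and of the 15 it alone was called when all genes were fitted without a filter (GZ minus CP 1.01, adjusted p = 0.00927). None of the 3 measured microglia genes passed limma, and their FPKM summed to 51.6 to 75.8 in the CP libraries and 39.7 to 63.9 in the GZ libraries.

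Genes outside the KCN names that assemble with potassium channels or move potassium were read from a list of 30, of which 23 were tested. Of these 13 were higher in CP, 3 were higher in GZ and 7 did not pass, with a median difference of -0.45 on the log2 scale. Of all genes tested, 20.9% were higher in CP and 24.5% in GZ, with a median difference of 0.05. DPP10, an accessory subunit of A-type channels, was 3.11-fold higher in CP (GZ minus CP -1.64 ± 0.16 SE, adjusted p = 2.78e-04). DPP6, its relative with the same role, was 5.95 ± 0.11 in CP against 5.99 ± 0.11 in GZ (SD, n = 3) and did not pass (adjusted p = 0.726). ANK3, the ankyrin that anchors KCNQ channels at the axon initial segment, was 2.53-fold higher in CP (GZ minus CP -1.34 ± 0.23 SE, adjusted p = 0.00252). ABCC9, a sulfonylurea receptor of vascular mural cells, was 2.86-fold higher in CP (GZ minus CP -1.52 ± 0.47 SE, adjusted p = 0.031), and was lost without library CP 1, CP 2, CP 3 or GZ 1 (adjusted p = 0.05004 to 0.106) and without both libraries numbered 1 (adjusted p = 0.0868). It is also 1 of the 8 endothelium and pericyte genes counted above. Without GZ 2 its difference was -0.98. Without both libraries numbered 1, 9 partner genes were called in favour of CP and 2 in favour of GZ, where 1721 and 1644 of 13477 genes were called. The call of ATP1B2, a subunit of the sodium-potassium pump, (adjusted p = 0.0372) was lost without library CP 1, CP 2, GZ 1 or GZ 2 (adjusted p = 0.0893 to 0.133) and without both numbered 1 (adjusted p = 0.293). It was also lost with all 6 libraries under the replicate block (adjusted p = 0.0674), without a filter (adjusted p = 0.0678) and with eBayes without trend (adjusted p = 0.0672).

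In the other direction, LGI1, a secreted protein that acts on KCNA channels, was 2.75-fold higher (GZ minus CP 1.46 ± 0.12 SE, adjusted p = 1.38e-04). SLC12A4, a potassium-chloride cotransporter, was 1.6-fold higher (GZ minus CP 0.68 ± 0.14 SE, adjusted p = 0.00542). Without CP 2, 5 partner genes were higher in GZ, as were 2713 of 13474 genes. The additional ones were SLC12A7 (adjusted p = 0.0123) and TMEM175 (adjusted p = 0.00727). For both, CP 2 was the highest CP library, the nearest to GZ. REST, a repressor of many neuronal channel genes, did not pass (GZ minus CP 0.22 ± 0.19 SE, adjusted p = 0.375).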

How the data were processed

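RNA from CP and GZ was prepared with a TruSeq RNA kit, per the labels' protocols, and the submitters' processing notes name STAR and SAMtools among other tools. They list rheMac8 and also Mmul_8.0.1 as builds, with no role for any of these. The deposited values are log2 FPKM normalized with cqn by the authors, per the labels. Counter, strand setting and annotation were not given in the sources used here. Values are per length, and levels of different genes were compared on that basis alone. How reads in overlapping gene models were counted is unknown, so such comparisons are approximate. FPKM in the text is 2 to the power of the deposited log2 value.

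Symbols came from a reference table of gene identifiers (14700 of 22345, 65.8%), and genes without a symbol could not be members. The 13460 genes whose 6-library mean was at least 0 were fitted with limma 3.58.1 in R 4.3.3 (lmFit, eBayes with trend, GZ minus CP, no block), with Benjamini-Hochberg adjustment over all of them. Some members and partner genes are counted but not reported by name here. The script was tested on simulated data. Members, lists and tests were chosen with earlier results of these data known. Values in every library are given for members called with a difference of at least 1, for the highest member of each subfamily with 3 or more members, and for 2 members on each side of the limit of 0. KCNQ3 was added to these after its values were seen. Named partner genes are among the 4 largest called differences in each direction; DPP6, ATP1B2, SLC12A7, TMEM175 and REST were chosen after their values were seen. Overlapping gene models were read from RefSeq's T2T-MMU8v2.0 table, another build, for neighbours only; 34 of 66 members have one. Alternatives were libraries left out, a replicate block, no filter or a limit of 1, a pseudocount of 1, quantile normalization, centring on library medians, and eBayes without trend or robust.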

Additional observations from a re-analysis of the deposited data

How the results depend on the processing

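Of 15 alternatives, 14 or 15 gave a value for each tested member, 759 values in all, and none reversed a direction that was called. Of the 32 called members 20 passed under every alternative that gave them a value, 18 of them higher in CP and 2, KCNH4 and KCNH8, higher in GZ. The other 12 lost their call in 46 values, and 4 members gained a call in 5, all by leaving out libraries except KCNN3 under the replicate block. Without both libraries numbered 1 there were 3 members higher in GZ against 6, and over all genes 1644 calls in favour of GZ and 1721 in favour of CP, against 3297 and 2816. Leaving out each library in turn gave 2 to 7 members higher in GZ, 18 to 28 higher in CP and a median member difference of -0.52 to -0.32. For partner genes it gave 3 to 5 higher in GZ and 11 to 12 higher in CP, and over all genes 2237 to 3126 and 2254 to 2864. The median member difference was -0.27 over all 66 members without a filter, where that of all genes was 0.21, and -0.34 with a pseudocount of 1, against -0.40. With that pseudocount 11 members were at least 2-fold higher in CP and 2 in GZ, against 14 and 3, since it shrinks differences, most of all those of low genes. KCND2, not a low gene at a mean of 3.75, went from -1.02 to -0.95, just across the limit. Why calls changed otherwise was not tested.

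With the replicate number as a block, 7 members were called in favour of GZ and 26 in favour of CP (3300 and 2817 of all genes), and KCNN3 passed (adjusted p = 0.0468) while the partner gene ATP1B2 did not (adjusted p = 0.0674). The deviations of same-numbered libraries from their tissue means correlated, across genes, at -0.38 for number 1, 0.30 for number 2 and 0.35 for number 3. The libraries numbered 2 correlated best with each other, as did those numbered 3, but those numbered 1 did not. The numbers were therefore not taken as pairs. Depth limits could not be given for these normalized values.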
